A study of Danio rerio with 18 samples.

Results

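Mature eggs and FG follicles of zebrafish mutant for sinhcaf were compared, and the step from follicle to egg in mutant females is described here. The 9 mutant libraries, 5 of eggs and 4 of FG follicles, were taken by their labels from 18 libraries in all, and the test covered the 9749 of 25432 genes in the table that reached 1 FPKM in 4 or more of these 9 libraries. FPKM is a read density, scaled to the length of the gene model and to the mapped fragments of the library.

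All samples came from ovary tissue, and the genotypes were sinhcaf-/- and wild type, with the same 2 stages and the same numbers of libraries in wild type. Eggs or follicles were pooled within 1 female for each library, so that a replicate is a fish. The stage name FG is used as the labels give it, since they do not spell it out, and they give no age, strain or line for the fish, nor how eggs were freed of follicle cells. Total RNA with an integrity number of at least 7 was made into libraries with the TruSeq Stranded mRNA kit, which picks up RNA by its poly(A) tail.

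A growing oocyte is surrounded by granulosa and theca cells, lays down yolk and a zona pellucida coat, and fills with the messages that the early embryo will use. Ovulation frees the egg from the follicle cells. An egg makes almost no new RNA, so its messages change by decay and by lengthening or shortening of their tails. Reads selected by poly(A) tail cannot tell a change in amount from a change in tail, and in bulk samples fewer cells of a type and less RNA per cell cannot be told apart. The protein made from sinhcaf belongs to the SIN3 complex, which represses genes with histone deacetylases.

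The disrupted gene itself was low in every library. sinhcaf read 0.217, 0.220, 0.184, 0.269 and 0.351 FPKM in mutant eggs 1 to 5, and 0.359, 0.649, 0.383 and 1.04 FPKM in mutant FG follicles 1 to 4. All eggs lay under all follicles. The gene did not reach the level needed for the test of the step. In wild type it ran from 0.361 to 1.59 FPKM in eggs and 0.615 to 3.05 in FG follicles, so mutant and wild-type ranges met in follicles and not in eggs. A message can remain where a protein is lost, so these values do not check the mutation.

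Libraries of the same stage resembled each other. The correlation of log2 values across genes was 0.9642 to 0.9871 among eggs, 0.9649 to 0.9947 among FG follicles and 0.6086 to 0.6657 between stages. FG follicle libraries 1 and 3 were the closest pair, and follicle libraries 2 and 4 had higher summed levels of granulosa markers than libraries 1 and 3. Egg libraries 4 and 5 held 7914 and 7917 genes at 1 FPKM or more, and egg libraries 1 to 3 held 6977 to 7424. The mean was 7461 ± 447 genes in eggs (SD, n = 5) and 9930 ± 128 in FG follicles (SD, n = 4). Genes of the mitochondrial genome made up 43.4% ± 5.81 of summed FPKM in eggs and 10.48% ± 2.996 in FG follicles, a difference of 32.96 percentage points. Both differences had a p of 0.0159 in a two-sided exact permutation test, the smallest it allows, and 0.0238 after adjustment over 3 library measures.

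Most genes differed between the stages, and more were lower in eggs than higher. At a limma adjusted p under 0.05, 8131 genes (83.4% of those tested) were called, 2417 higher in eggs (24.8%) and 5714 lower (58.6%). The 5 egg and 4 follicle values did not overlap for 7497 genes (76.9%). A log2 difference of at least 1 was reached by 1439 higher and 4550 lower genes, and one of at least 3 by 95 and 887. The median gene differed by -0.86 in log2(FPKM + 1), the scale of all log2 values given here. A level of 1 FPKM was reached by 9088 genes in every FG follicle library, 6377 in every egg library and 6013 in all of both. These counts, and those of genes per library above, use FPKM alone and were not made under another scaling. They do not show which genes are absent from eggs.

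The balance of rises and falls depends on how the libraries are put on one scale, because FPKM values are shares of what was sequenced. Rises made up 29.7% of calls with FPKM, 20.7% with TPM, 32.4% with TPM without the mitochondrial genome, 48.1% with median-of-ratios scaling and 49.3% with quantile normalization. The median gene moved in turn from -0.86 to -1.48, -0.91, -0.06 and -0.01. Called in the same direction under all 5 were 1678 genes higher in eggs (17.2%) and 3718 lower (38.1%), and most group counts below are given both ways. A log2 difference between 0 and -0.86 is thus a rise relative to the median gene. A gene under 1 FPKM in every egg could pass the level filter through the follicles alone, so the filter fixed its direction. That holds for every such gene below, also where it is counted in a list.

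**Figure D1:**
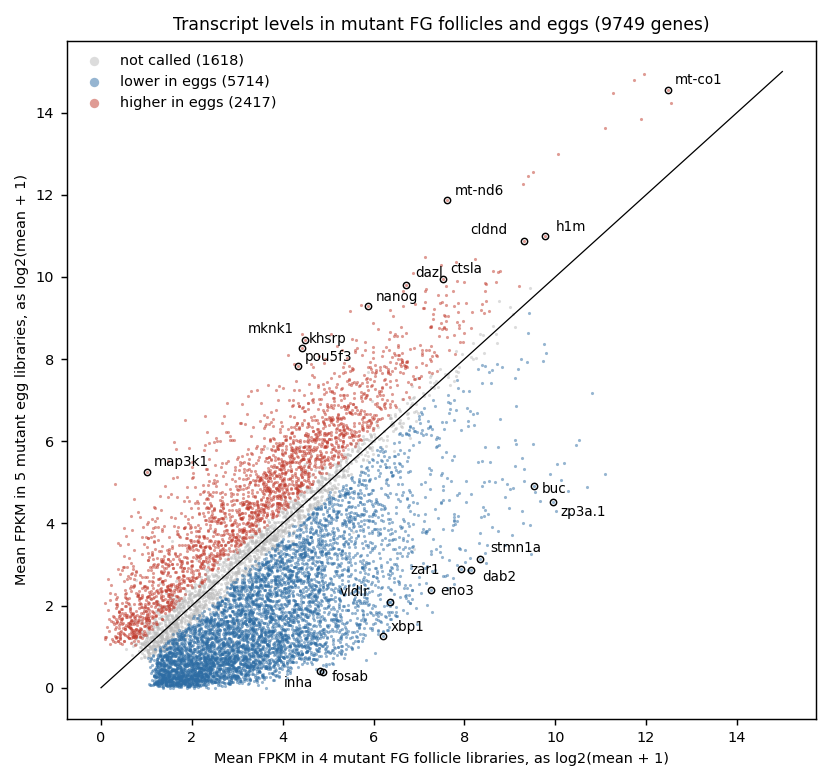
Mean level of each tested gene in mutant FG follicles (x axis) and mutant eggs (y axis), as log2 of the mean FPKM plus 1, with called genes in colour and the line of equal level in black. The 5714 lower genes spread far below the line, reaching levels near 0, while the 2417 higher genes stay nearer to it.

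The messages of the egg coat fell together. All 14 tested zona pellucida genes, which build the coat laid down around the growing oocyte, were lower in eggs, with a median of -4.12, and 13 were lower under all 5 scalings. The shares lower over all genes were 58.6% and 38.1%. Summed FPKM of the 16 zona pellucida genes in the table fell from between 3684 and 4703 in FG follicles to between 173.7 and 246.5 in eggs. zp3a.1 read 15.1, 21.9, 19.6, 28.6 and 24.5 FPKM in eggs and 990.4, 888, 1119 and 975 FPKM in FG follicles. Every egg was far under every follicle, and the log2 difference was -5.46 ± 0.16 (SE; adjusted p = 3.77e-10), the greatest fall among genes named by the rule for largest changes. zp3b read 15.4, 17, 12.4, 22.8 and 25.7 FPKM in eggs and 619, 534, 697 and 616 FPKM in FG follicles, and its log2 difference was -5.01 ± 0.19 (SE; adjusted p = 1.05e-09). zp2l2 ran from 0.318 to 0.760 FPKM in eggs and 9.74 to 46.9 in FG follicles, where follicle library 4 was the lowest. zp2.6 was the weakest member at 0.0708 to 0.727 FPKM in eggs and 1.19 to 6.83 in FG follicles, and its call was lost with quantile normalization (log2 difference -0.60, adjusted p = 0.0978). Both zp2l2 and zp2.6, under 1 FPKM in every egg, passed the level filter through the follicles alone, so their direction was fixed by it. Several of these genes are close copies of each other, and how shared reads were counted is not given, so single copies are less certain than the family.

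Uptake of yolk relies on receptors and coated pits at the oocyte surface. Of 21 tested genes of yolk uptake, 13 were lower and 4 higher in eggs, and 11 and 3 kept that direction under all 5 scalings. Those shares, 61.9% lower and 19.05% higher, are near the 58.6% and 24.8% over all genes. The median was -1.85, against -0.86 over all genes. vldlr read 2.71, 2.55, 2.39, 4.43 and 4.26 FPKM in eggs and 79.4, 78.7, 86.3 and 79.6 FPKM in FG follicles. The product is a vitellogenin receptor in egg-laying vertebrates, and no egg value came near a follicle value. Its log2 difference was -4.29 ± 0.16 (SE; adjusted p = 1.16e-09). The endocytic adaptor gene dab2 read 4.82, 6.32, 5.34, 7.81 and 7.23 FPKM in eggs and 282, 291, 276 and 279.6 FPKM in FG follicles. Follicles were even, all eggs were far lower, and the log2 difference was -5.29 ± 0.13 (SE; adjusted p = 1.89e-10). ap2s1, a subunit of the coated pit adaptor, ran from 3.07 to 4.14 FPKM in eggs and 45 to 60.5 in FG follicles. sqstm1, a carrier for selective autophagy, ran from 0.850 to 1.66 FPKM in eggs and 22.6 to 27.4 in FG follicles.

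Messages of the germ plasm, the cytoplasm that marks future germ cells, split. Of 31 tested germ plasm and piRNA genes, 11 were higher in eggs (35.5%, against 24.8% over all genes) and 16 lower (51.6%, against 58.6%). Under all 5 scalings, 6 and 14 kept that call. buc read 20, 26.4, 22.3, 43.9 and 33.8 FPKM in eggs and 655, 759, 747 and 810.2 FPKM in FG follicles. This organizer of the oocyte's Balbiani body was lower in every egg, by a log2 difference of -4.67 (adjusted p = 2.23e-09). rbpms2b, whose product binds RNA with Bucky ball in zebrafish oocytes, ran from 17.5 to 28.3 FPKM in eggs and 460.1 to 506 in FG follicles. tdrd5, a Tudor-domain gene of the piRNA pathway, ran from 0.386 to 1.17 FPKM in eggs and 14.3 to 20 in FG follicles. henmt1, whose product methylates piRNAs, ran from 0.0939 to 0.446 FPKM in eggs and 11.8 to 14.9 in FG follicles. It was under 1 FPKM in every egg, so the filter had fixed its direction.

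Other germ plasm messages were higher in eggs. dazl read 1139, 1007, 825, 777 and 751 FPKM in eggs and 75.8, 119, 66.7 and 154 FPKM in FG follicles. dazl encodes an RNA-binding translation regulator of germ cells, and eggs were above follicles throughout, with a log2 difference of 3.17 ± 0.23 (SE; adjusted p = 1.38e-07). grip2a, needed for moving dorsal determinants in zebrafish eggs, ran from 68.3 to 88.4 FPKM in eggs and 16 to 22.5 in FG follicles. nanos3, which protects germ cells, ran from 20.1 to 37 FPKM in eggs and 4.86 to 13.7 in FG follicles. Follicle library 2 held more nanos3 than the other 3 follicle libraries, and no follicle reached an egg.

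Oocyte and embryonic factors moved both ways. Of 26 tested oocyte factors, 9 were higher (34.6%, against 24.8% over all genes) and 16 lower (61.5%, against 58.6%). Under all 5 scalings, 7 and 10 kept that call. nanog read 649, 659.9, 626, 555 and 631 FPKM in eggs and 66.1, 52.6, 69.9 and 44.1 FPKM in FG follicles. pou5f3 read 226, 210.4, 215, 217 and 259 FPKM in eggs and 21, 21.9, 16.8 and 16.6 FPKM in FG follicles. Nanog and Pou5f3 are maternal factors that start the zygotic genome in zebrafish, and the stages were far apart for both. The log2 difference was 3.42 ± 0.14 (SE; adjusted p = 1.37e-09) for nanog. It was 3.503 ± 0.12 (SE; adjusted p = 5.51e-10) for pou5f3. eomesa, a maternal T-box factor, ran from 125.9 to 167 FPKM in eggs and 7.96 to 16.5 in FG follicles (log2 difference 3.44).

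Falls on the same list included regulators of the oocyte's stored messages and chromatin. zar1 read 5.52, 6.61, 5.35, 8.16 and 6.6 FPKM in eggs and 300.5, 205, 302 and 162 FPKM in FG follicles. zar1, a maternal regulator of translation and zona pellucida mRNA in zebrafish oocytes, was lower in all eggs, with a log2 difference of -4.99 ± 0.20 (SE; adjusted p = 1.31e-09). npm2a, a histone chaperone of eggs, ran from 1.12 to 4.56 FPKM in eggs and 65.3 to 76.1 in FG follicles. bmp15, a growth factor from the oocyte to its follicle cells, ran from 3.06 to 7.14 FPKM in eggs and 58.6 to 68.6 in FG follicles, with a log2 difference of -3.56.

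**Figure D2:**
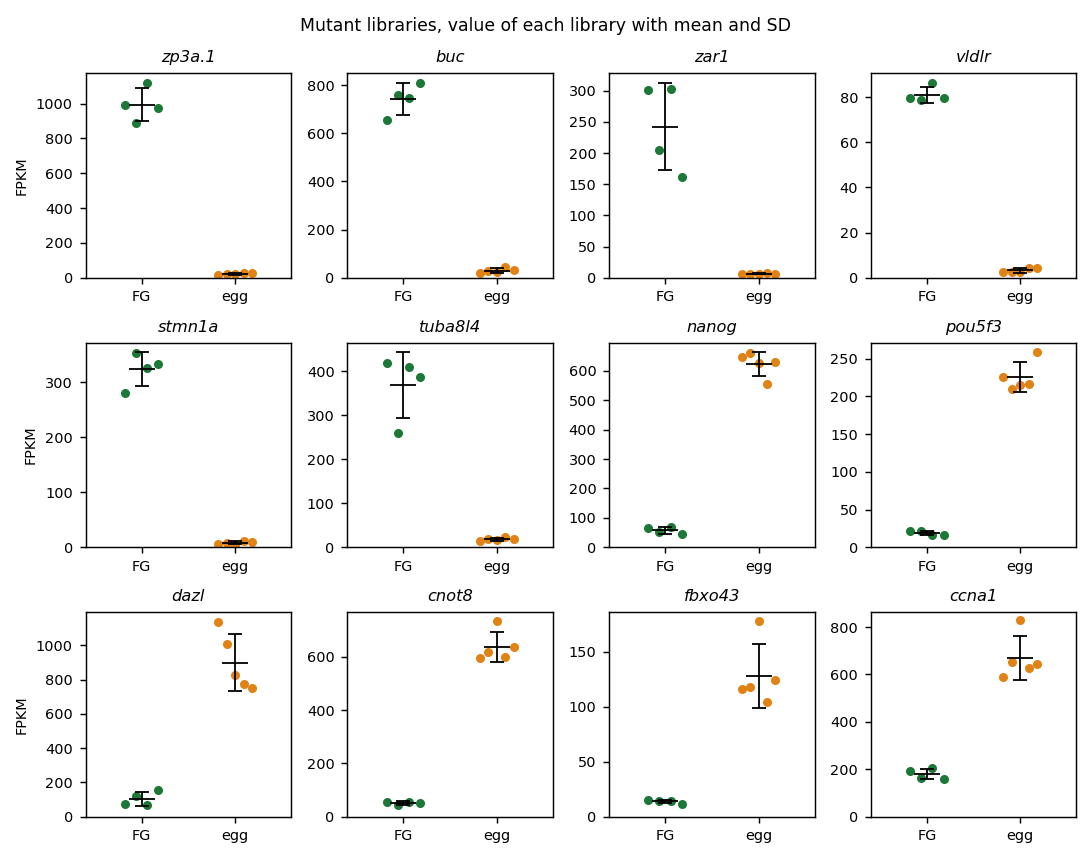
FPKM of 12 genes in each of the 4 mutant FG follicle libraries (green) and 5 mutant egg libraries (orange), with the mean and SD in black; the y axes start at 0 and differ between panels. The first 6 genes are lower in eggs and the last 6 higher, with no overlap of the stages in any panel; 1 follicle library of tuba8l4 (258.4 FPKM) is below the other 3.

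Signals that pattern the embryo moved both ways. Of 21 tested TGF-beta family genes, 8 were higher and 11 lower, and of 22 tested maternal Wnt axis genes, 8 and 6 (6 and 6, and 6 and 3, under all 5 scalings). Over all genes 24.8% were higher and 58.6% lower, against 38.1% and 52.4% in the first list and 36.4% and 27.3% in the second. smad5, a BMP signal carrier needed for ventral fates in zebrafish, ran from 152 to 217 FPKM in eggs and 29.2 to 40.5 in FG follicles. The activin receptor gene acvr2bb ran from 9.82 to 15.5 FPKM in eggs and 1.39 to 1.85 in FG follicles. The BMP receptor gene acvr1l ran from 32.4 to 57.8 FPKM in eggs and 8.25 to 8.77 in FG follicles. lef1, a Wnt-responsive factor, read 29.7, 29.1, 25, 28.4 and 32 FPKM in eggs against 3.93, 3.46, 3.07 and 2.31 in FG follicles. ctnnb2, a beta-catenin gene, read 386, 339, 301, 259 and 283 FPKM in eggs against 98.1, 83.9, 103 and 85.6 in FG follicles. Eggs were higher throughout for both. The repressor tcf7l1b was lower, at 0.336 to 0.580 FPKM in eggs and 6.67 to 9.76 in FG follicles, a direction that the filter had fixed. The list median was -0.52 for the TGF-beta family and 0.18 for the Wnt axis with FPKM, and 0.40 and 1.03 with median-of-ratios scaling.

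Granulosa markers were low in eggs, while the sum of theca and stromal markers, mostly cyp17a1, was not. Of 25 granulosa markers in the table, 8 passed the level filter. Of these, 7 were lower in eggs (87.5%) and none higher, against 58.6% and 24.8% over all genes, and 7 were lower under all 5 scalings. A filter passed only through the follicles would favour that direction. The summed FPKM of all 25 was 1.87 to 4.32 in eggs and 37.8 to 158 in FG follicles, and 3 markers were listed at 0 in all eggs and none in all follicles. The follicles themselves were uneven: libraries 2 and 4 summed to 158 and 121.9, and libraries 1 and 3 to 37.8 and 38.3. inha, an inhibin subunit, read 0.272, 0.413, 0.142, 0.326 and 0.453 FPKM in eggs and 6.45, 59.0, 7.0 and 36.1 in FG follicles. Its log2 difference was -3.86 ± 0.55 (SE). igf3, a gonad growth factor of fish, ran from 0 to 0.281 FPKM in eggs and 8.23 to 21.8 in FG follicles. The keratin gene krt8 ran from 0.120 to 0.436 FPKM in eggs and 4.06 to 18.9 in FG follicles. Because inha, igf3 and krt8 were under 1 FPKM in every egg, the filter had fixed their direction. The marker cx43, a connexin, overlapped between stages at 0.233 to 2.007 FPKM in eggs and 1.61 to 3.87 in FG follicles and was not called (adjusted p = 0.0849). Theca and stromal markers had 2 tested genes, 1 higher and 1 lower, too few to set against the shares over all genes. The list summed to 62.6 to 86.0 FPKM in eggs and 47.9 to 69.7 in FG follicles, with follicle library 4 the lowest. The higher gene was cyp17a1, which made up most of the sum in follicles and nearly all of it in eggs. The sum thus says little about the other markers. The rise of cyp17a1 was lost with TPM (log2 difference 0.17, adjusted p = 0.41), and the lower gene was lower under all 5 scalings. Of 15 endothelial markers only 2 passed the level filter. Both were higher in eggs, 1 of them under all 5 scalings, against 24.8% and 17.2% over all genes. The claudin gene cldn5b, which also stands on the junction list, is 1 of these 2. So few genes say little about the other endothelial markers. The list summed to 11 to 19.2 FPKM in eggs and 7.80 to 9.10 in FG follicles without overlap.

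Smooth muscle and leukocyte lists were lower in a share close to that over all genes. Of smooth muscle genes, 3 of 5 tested were lower and none higher, and of leukocyte genes 3 of 5 were lower and 1 higher, against 58.6% lower and 24.8% higher over all tested genes. tagln, a contractile marker, ran from 0.0739 to 0.567 FPKM in eggs and 7.65 to 27.6 in FG follicles, and acta2, smooth muscle actin, from 0.198 to 1.30 FPKM in eggs and 5.58 to 28.3 in FG follicles. cd74a and b2m act in antigen presentation. cd74a ran from 0 to 0.0682 FPKM in eggs and 1.55 to 8.30 in FG follicles, and b2m from 0.0622 to 0.393 FPKM in eggs and 3.60 to 12.4 in FG follicles. Follicle libraries 2 and 4 were the highest for all 4. Of these, tagln, cd74a and b2m were under 1 FPKM in every egg. They passed the level filter through the follicles alone, so their direction was fixed by it and the counts say little about these lists. Leukocyte markers summed to 12.18 to 55.1 FPKM in follicles and 7.39 to 13.01 in eggs. Erythrocyte and liver markers had no gene that passed the level filter. The higher leukocyte gene was cxcr4b, a chemokine receptor also used by germ cells in zebrafish, which ran from 5.35 to 11.2 FPKM in eggs and 0.481 to 2.39 in FG follicles and was called higher in eggs. The share of these genes' change that follicle cells carry was not tested.

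**Figure D3:**
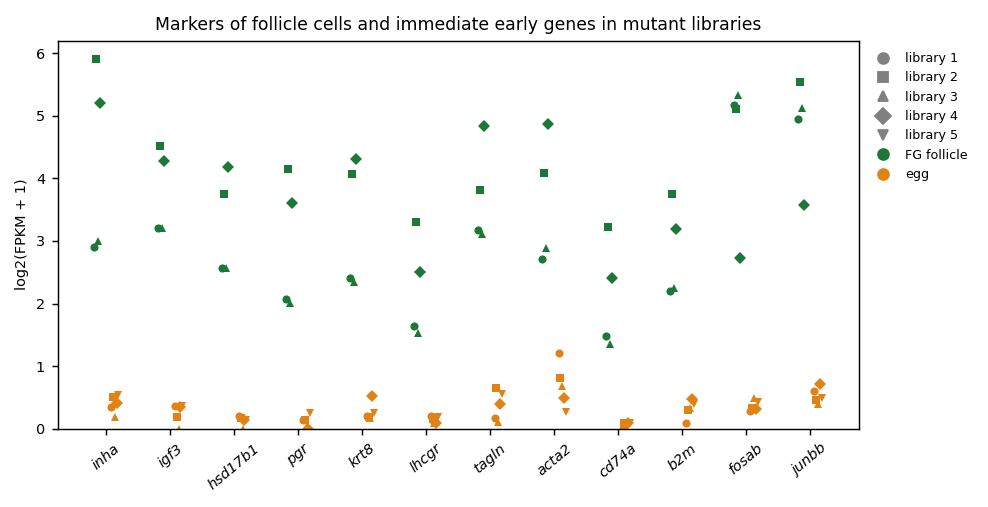
Levels of 12 genes, as log2(FPKM + 1), in mutant FG follicle libraries (green) and mutant egg libraries (orange); marker shapes give the library number. Follicle libraries 2 and 4 are above libraries 1 and 3 for inha through b2m, whereas fosab is lowest in follicle library 4 (5.62 FPKM) and no egg value of any gene reaches a follicle value.

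Steroid genes did not move as a block. Of 13 tested genes, 4 were higher in eggs (30.8%, against 24.8% over all genes) and 7 lower (53.85%, against 58.6%). Under all 5 scalings, 2 and 6 kept that call. hsd17b1, which makes estradiol from estrone, read 0.150, 0.126, 0, 0.0990 and 0.0985 FPKM in eggs against 4.96, 12.4, 4.94 and 17.1 in FG follicles. hsd3b2, a 3beta-hydroxysteroid dehydrogenase, ran from 0.684 to 1.03 FPKM in eggs and 21.5 to 26.1 in FG follicles, evenly across follicles. Its relative hsd3b1 ran from 0.0585 to 0.234 FPKM in eggs and 2.46 to 18.7 in FG follicles, highest in follicle libraries 2 and 4. Both hsd17b1 and hsd3b1 were under 1 FPKM in every egg, so the filter had fixed their direction, and the count of falls holds them. cyp11a1, the side-chain cleavage enzyme, overlapped between stages at 36.6 to 134 FPKM in eggs and 43.9 to 113 in FG follicles and was not called (adjusted p = 0.679). With median-of-ratios scaling its log2 difference was instead 0.84 (adjusted p = 0.0392). cyp17a1, the 17-hydroxylase, ran from 61.7 to 84.6 FPKM in eggs and 29.2 to 51.3 in FG follicles and was called higher, a call lost with TPM (log2 difference 0.17, adjusted p = 0.41). fdx1, a redox partner of such enzymes, ran from 2.96 to 6.85 FPKM in eggs and 0.535 to 2.99 in FG follicles, with overlapping stages.

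Few receptors for hormones passed the level filter, 9 of 37, and 7 of those were lower and 2 higher (5 and 1 under all 5 scalings). Those below 1 FPKM in every egg, such as lhcgr and pgr, passed the filter through the follicles alone, so their direction was fixed by it and the count says nothing about the receptors as a group. lhcgr, the luteinizing hormone receptor, ran from 0.0584 to 0.153 FPKM in eggs and 1.88 to 8.87 in FG follicles. pgr, the nuclear progestin receptor, ran from 0 to 0.195 FPKM in eggs and 3.0 to 16.8 in FG follicles. foxl2b, a granulosa transcription factor, ran from 0.128 to 0.679 FPKM in eggs and 1.86 to 6.76 in FG follicles. Immediate early genes, which cells switch on fast after a stimulus, were lower in 17 of 23 tested and higher in 1 (15 and 0 under all 5 scalings), of 51 in the table, and the filter favours that direction here too. The share lower was 73.9%, against 58.6% over all genes. fosab read 0.216, 0.261, 0.409, 0.245 and 0.350 FPKM in eggs and 35.1, 33.5, 39.4 and 5.62 FPKM in FG follicles. junbb read 0.512, 0.372, 0.317, 0.640 and 0.411 FPKM in eggs and 29.9, 45.5, 33.8 and 10.9 FPKM in FG follicles. Both encode subunits of the AP-1 factor. Follicle library 4 was the lowest for both and still above every egg. gadd45ba ran from 0.0357 to 0.286 FPKM in eggs and 2.63 to 17.2 in FG follicles, again with follicle library 4 the lowest.

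Genes that act on mRNA tails moved both ways. Of 68 tested genes of tails, decay and translation, 25 were higher (36.8%, against 24.8% over all genes) and 35 lower (51.5%, against 58.6%). Under all 5 scalings, 18 and 24 kept that call. cnot8 read 595, 619, 732, 601 and 637 FPKM in eggs and 56.1, 42.4, 54.4 and 53 FPKM in FG follicles. cnot8 encodes a deadenylase of the CCR4-NOT complex, and eggs and follicles did not overlap. The log2 difference was 3.61 ± 0.11 (SE; adjusted p = 4.22e-10). khsrp, a binder of AU-rich messages, ran from 266 to 334 FPKM in eggs and 15.7 to 23.2 in FG follicles. elavl1b, a relative of the message-stabilizing HuR, ran from 48.6 to 62.1 FPKM in eggs and 3.03 to 6.16 in FG follicles. ago3a, an Argonaute, ran from 11.8 to 16.1 FPKM in eggs and 0.717 to 1.12 in FG follicles. cth1, a CCCH zinc finger gene, reached 1089.9, 1121, 1294, 904 and 1053 FPKM in eggs against 138, 108, 132 and 83.1 in follicles. Among the falls, cnot4b, a ubiquitin ligase tied to CCR4-NOT, ran from 0.716 to 1.31 FPKM in eggs and 25.7 to 27.9 in FG follicles. cpsf3, the endonuclease that cuts pre-mRNA before tailing, ran from 2.1 to 5.66 FPKM in eggs and 46.8 to 55.2 in FG follicles.

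Splicing factors had the largest share of rises among lists of 5 or more tested genes, apart from the mitochondrial genome. Of 71 tested, 50 were higher (70.4%, against 24.8% over all genes) and 13 lower (18.3%, against 58.6%) in eggs. Under all 5 scalings, 40 and 4 kept that call, against 17.2% and 38.1% over all genes. The median was 1.07 against -0.86 over all genes. hnrnpaba read 527, 971, 908, 867 and 756 FPKM in eggs against 121, 99.0, 95.7 and 82.0 in FG follicles, with egg library 1 lowest among eggs. srsf1a, an SR splicing factor, ran from 352 to 588 FPKM in eggs and 58.9 to 65.6 in FG follicles, and its relative srsf7a from 76.8 to 131 FPKM in eggs and 4.84 to 6.34 in FG follicles. hnrnpa0b, of the hnRNP family, ran from 113 to 154 FPKM in eggs and 13.8 to 18.5 in FG follicles. Cytosolic ribosomal protein genes had 24 higher (30.8%) and 26 lower (33.3%) of 78, with 14 and 4 so under all 5 scalings. rps14 of the small subunit was higher and ran from 698 to 909 FPKM in eggs and 331 to 377 in FG follicles. rpl35a and rpl4 of the large subunit were lower. rpl35a ran from 9.95 to 20.7 FPKM in eggs and 67.3 to 86.0 in FG follicles, and rpl4 from 67.4 to 99.4 FPKM in eggs and 265 to 316 in FG follicles.

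Genes of cell division also moved both ways. Of 58 tested M phase genes, 22 were higher in eggs (37.9%, against 24.8% over all genes) and 28 lower (48.3%, against 58.6%). Under all 5 scalings, 14 and 23 kept that call. fbxo43 read 116, 118, 178, 104 and 125 FPKM in eggs and 15.5, 14.5, 14.1 and 11.7 FPKM in FG follicles. Emi2, encoded by fbxo43, inhibits the anaphase-promoting complex and holds vertebrate eggs in meiotic arrest, and its message was higher in all eggs. The log2 difference was 3.09 ± 0.15 (SE; adjusted p = 6.59e-09). Its relative fbxo5, encoding Emi1, moved the other way, at 1.5, 2.19, 2.07, 3.25 and 2.21 FPKM in eggs against 56.3, 62.3, 36 and 59.2 in FG follicles, with a log2 difference of -4.06 ± 0.19 (SE; adjusted p = 4.81e-09). The cyclin gene ccna1 ran from 589 to 828.5 FPKM in eggs and 159 to 205 in FG follicles. cdc25b, whose product activates Cdk1, ran from 208 to 271 FPKM in eggs and 53.3 to 72.3 in FG follicles, and the cohesin gene rad21a from 192 to 278 FPKM in eggs and 56.7 to 65.5 in FG follicles. All 3 were higher in eggs. cdk1, the M phase kinase itself, ran from 0.643 to 1.49 FPKM in eggs and 15.5 to 19.1 in FG follicles. Its inhibitory kinase gene pkmyt1 ran from 0.491 to 1.12 FPKM in eggs and 19.3 to 21.8 in FG follicles. fzr1a, an activator of the anaphase-promoting complex, ran from 0.571 to 0.663 FPKM in eggs and 17.5 to 22.7 in FG follicles. It was under 1 FPKM in every egg, so the filter had fixed its direction.

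Replication genes moved both ways, in shares near those over all genes. Of 40 tested, 10 were higher (25%, against 24.8% over all genes) and 25 lower (62.5%, against 58.6%). Under all 5 scalings, 7 and 17 kept that call. orc6, of the origin recognition complex, was higher and ran from 137 to 195 FPKM in eggs and 23.7 to 32.8 in FG follicles. cdc6, which loads the helicase, was higher too and ran from 23.9 to 39.0 FPKM in eggs and 3.19 to 7.36 in FG follicles. The helicase subunit genes mcm2 and mcm5 were lower. mcm2 ran from 0.796 to 1.69 FPKM in eggs and 47.3 to 60.7 in FG follicles, and mcm5 from 2.04 to 4.80 FPKM in eggs and 79.2 to 88.5 in FG follicles. Histone and HMGB genes had 12 higher (42.9%) and 10 lower (35.7%) of 28, with 10 and 8 so under all 5 scalings. h1m, the maternal linker histone, read 1988, 2244, 2491, 1798 and 1669.7 FPKM in eggs against 898, 894, 853 and 871 in FG follicles. h2afva and h2afvb encode H2A.Z variants. h2afvb ran from 281 to 360.4 FPKM in eggs and 55.5 to 68.2 in FG follicles, and h2afva from 544 to 769 FPKM in eggs and 93.3 to 176 in FG follicles. h2afx, a variant that marks DNA damage, was lower and ran from 0.221 to 0.683 FPKM in eggs and 4.93 to 17.3 in FG follicles. It was under 1 FPKM in every egg, so the filter had fixed its direction. Histone messages without a poly(A) tail would be missed by this kit.

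Energy genes of the nucleus and of the mitochondrial genome went in opposite directions with FPKM. All 13 tested mitochondrial genes were higher with FPKM, with a median of 3.02, and 9 were higher under all 5 scalings. The shares higher over all genes were 24.8% and 17.2%. Quantile normalization turned mt-co1, mt-co2 and mt-cyb to -0.27, -0.62 and -0.52. mt-nd6 read 4797, 3355, 3315, 4660.5 and 2548 FPKM in eggs and 166, 224, 154 and 241 FPKM in FG follicles. This subunit of complex I had the largest rise of the 13, with a log2 difference of 4.23 ± 0.20 (SE; adjusted p = 5.15e-09). mt-nd6 lies on the other strand from the remaining protein genes, and whether counting used strand is not given. mt-co1, a cytochrome oxidase subunit, ran from 18792 to 29421 FPKM in eggs and 4143 to 7604 in FG follicles. mt-atp6, of ATP synthase, ran from 22130.0 to 36886 FPKM in eggs and 2477 to 4932 in FG follicles.

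Nuclear genes of the respiratory chain were lower in 60 of 73 tested and higher in 5 (42 and 2 under all 5 scalings), with a median of -1.80. Those shares were 82.2% and 6.85%, against 58.6% lower and 24.8% higher over all genes. atp5f1b, the catalytic beta subunit of ATP synthase, read 10.4, 5.66, 4.11, 3.97 and 4.01 FPKM in eggs against 188, 180.1, 195 and 196 in FG follicles, where egg library 1 was highest of the eggs. ndufv2 and ndufa10 belong to complex I. ndufv2 ran from 1.03 to 2.17 FPKM in eggs and 39.9 to 52.7 in FG follicles, and ndufa10 from 0.731 to 1.63 FPKM in eggs and 33.7 to 40.9 in FG follicles. ndufa4l was one of the 5 rises and ran from 125 to 149.8 FPKM in eggs and 46 to 61.2 in FG follicles. Mitochondrial ribosomal proteins were lower in 54 of 65 (83.1%) and higher in 6 (9.23%), with 44 and 5 so under all 5 scalings and a median of -2.52. mrpl17 ran from 4.41 to 7.32 FPKM in eggs and 191 to 201 in FG follicles, and mrpl53 from 2.5 to 5.70 FPKM in eggs and 91.3 to 129 in FG follicles. mrpl13, of the same large subunit, was higher in eggs and ran from 79.5 to 121 FPKM in eggs and 36.4 to 44.0 in FG follicles.

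Genes of sugar breakdown and of the proteasome were lower in larger shares than the 58.6% over all genes. Glycolysis genes were lower in 16 of 18 (88.9%) and higher in none (13 lower under all 5 scalings, against 38.1% over all genes), with a median of -2.22. eno3 (enolase) ran from 2.99 to 5.21 FPKM in eggs and 133 to 169 in FG follicles. aldoaa (aldolase) ran from 1.99 to 3.29 FPKM in eggs and 65.6 to 72.1 in FG follicles, and gapdh from 17.5 to 56.9 FPKM in eggs and 343 to 405 in FG follicles. pgk1 was uneven among eggs, at 1.69, 6.17, 2.1, 10.6 and 10.8 FPKM, against 80.8, 78.1, 90.1 and 76.7 in follicles. Proteasome genes were lower in 32 of 45 (71.1%) and higher in 5 (11.1%, against 24.8% over all genes), with 27 and 4 so under all 5 scalings. psma2, of the core, ran from 0.984 to 1.75 FPKM in eggs and 42.3 to 48.7 in FG follicles. psmc5, an ATPase of the cap, ran from 0.537 to 1.49 FPKM in eggs and 35.1 to 39.3 in FG follicles. psme4b and psme3, which encode proteasome activators, were higher. psme4b ran from 29.6 to 35.8 FPKM in eggs and 4.28 to 4.86 in FG follicles, and psme3 from 48.1 to 73.3 FPKM in eggs and 13 to 16.5 in FG follicles.

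Lysosome and chaperone genes held falls and rises. Of 39 tested lysosome and proton pump genes, 10 were higher (25.6%, against 24.8% over all genes) and 21 lower (53.85%, against 58.6%). Under all 5 scalings, 8 and 12 kept that call. The proton pump genes atp6v0b and atp6v0ca were lower. atp6v0b ran from 1.28 to 3.24 FPKM in eggs and 75.1 to 109 in FG follicles, and atp6v0ca from 4.77 to 9.26 FPKM in eggs and 108 to 119.7 in FG follicles. The cathepsin genes ctsla and ctsc and the cholesterol carrier gene npc2 were higher. ctsla ran from 889.9 to 1182 FPKM in eggs and 142 to 210.2 in FG follicles, and ctsc from 137 to 178 FPKM in eggs and 9.78 to 17.2 in FG follicles. npc2 ran from 1158 to 1558 FPKM in eggs and 211 to 237 in FG follicles. Chaperone genes were lower in 39 of 61 (63.9%) and higher in 17 (27.9%), again near the shares over all genes (28 and 9 under all 5 scalings). hspa5 read 9.64, 12.22, 9.58, 18.6 and 12.6 FPKM in eggs and 366, 294, 387 and 253 FPKM in FG follicles. hspa5 is the main chaperone of the endoplasmic reticulum, and eggs lay far under follicles. hsp90b1, of the same compartment, ran from 9.07 to 12.8 FPKM in eggs and 108 to 210.3 in FG follicles. xbp1, a factor of the unfolded protein response, ran from 1.13 to 1.62 FPKM in eggs and 60.5 to 84.1 in FG follicles. glrx, encoding a glutaredoxin, ran from 1.2 to 2.3 FPKM in eggs and 69.4 to 90 in FG follicles, and sod2, the mitochondrial superoxide dismutase, from 2.70 to 7.73 FPKM in eggs and 104 to 122.7 in FG follicles.

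The series title names microtubule functions, which makes the tubulins of interest. None of 9 tested tubulin genes was higher in eggs and 7 (77.8%) were lower, against 24.8% higher and 58.6% lower over all genes. Under all 5 scalings 5 tubulin genes were lower, against 38.1% of all genes. The tubulin median was -1.61, against -0.86 over all genes, and so few genes give uncertain shares. tuba8l4 read 13.2, 17.9, 16.7, 22.3 and 18.1 FPKM in eggs and 418, 258, 410.0 and 388 FPKM in FG follicles. Follicle library 2 was the lowest follicle and still far above the eggs. tuba8l ran from 1.08 to 2.32 FPKM in eggs and 55.7 to 99.8 in FG follicles, and tuba4l, another alpha-tubulin, from 77.6 to 166 FPKM in eggs and 494 to 608 in FG follicles. tubb2b, a beta-tubulin, ran from 4.59 to 6.78 FPKM in eggs and 69.1 to 97.7 in FG follicles. tubb4b was still abundant in eggs, from 184 to 303 FPKM in eggs and 556 to 658 in FG follicles, and its call was lost with median-of-ratios scaling (log2 difference -0.23, adjusted p = 0.387). tubg1, the nucleating gamma-tubulin, ran from 10.4 to 13.4 FPKM in eggs and 8.57 to 11.8 in FG follicles and was not called (adjusted p = 0.159), and was higher with quantile normalization (1.097, adjusted p = 9.13e-06). Tubulin genes resemble each other closely, and the treatment of shared reads is not given.

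Genes that act on microtubules were called in shares near or under those over all genes, 58.6% lower and 24.8% higher. Of 38 tested microtubule-associated genes, 22 were lower and 9 higher (15 and 7 under all 5 scalings), and of 32 motors, 16 and 7 (9 and 3). stmn1a read 6.0, 7.06, 4.72, 11.3 and 9.69 FPKM in eggs and 281, 353, 326 and 334 FPKM in FG follicles. stmn1a encodes stathmin, which sequesters tubulin, and the stages were far apart. The log2 difference was -5.26 ± 0.21 (SE; adjusted p = 1.28e-09). tbcc, a tubulin folding cofactor, ran from 1.42 to 2.83 FPKM in eggs and 47.8 to 56.5 in FG follicles. dync1h1, the dynein heavy chain, ran from 0.123 to 0.185 FPKM in eggs and 2.15 to 6.14 in FG follicles. dctn2, of its partner dynactin, ran from 0.364 to 0.901 FPKM in eggs and 9.38 to 12 in FG follicles. Both dync1h1 and dctn2 were under 1 FPKM in every egg, so the filter had fixed their direction. The mitotic kinesin genes kif22 and kif20a were higher. kif22 ran from 191 to 242 FPKM in eggs and 36.3 to 52.6 in FG follicles, and kif20a from 51.9 to 78.3 FPKM in eggs and 16.5 to 18.5 in FG follicles. mapre1b, which encodes a plus-end binding protein, was higher too and ran from 125 to 210.3 FPKM in eggs and 48.9 to 65.1 in FG follicles.

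Actin genes were lower in 26 of 36 tested (72.2%, against 58.6% over all genes) and higher in 6 (16.7%, against 24.8%). Under all 5 scalings, 20 and 4 kept that call, against 38.1% and 17.2% over all genes. actb1 ran from 2.86 to 4.63 FPKM in eggs and 68.2 to 137 in FG follicles, with follicle libraries 1 and 3 highest. cfl1, which encodes the actin-severing cofilin, ran from 18.9 to 41.4 FPKM in eggs and 475 to 533 in FG follicles. pfn2, a profilin, ran from 10.4 to 25.8 FPKM in eggs and 293 to 409 in FG follicles. myl12.1, a myosin light chain, was higher and ran from 595 to 671 FPKM in eggs and 208 to 231 in FG follicles. Extracellular matrix genes were lower in 14 of 21 tested and higher in 3 (8 and 3 under all 5 scalings), of 167 in the table, with the same limit of the filter. Those shares, 66.7% lower and 14.3% higher, are not far from the 58.6% and 24.8% over all genes. The matrix protease gene mmp2 ran from 0.0323 to 0.283 FPKM in eggs and 2.41 to 17 in FG follicles, and the laminin gene lamb1a from 0.0476 to 0.104 FPKM in eggs and 2.2 to 12.7 in FG follicles. Both were high in follicle libraries 2 and 4.

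**Figure D4:**
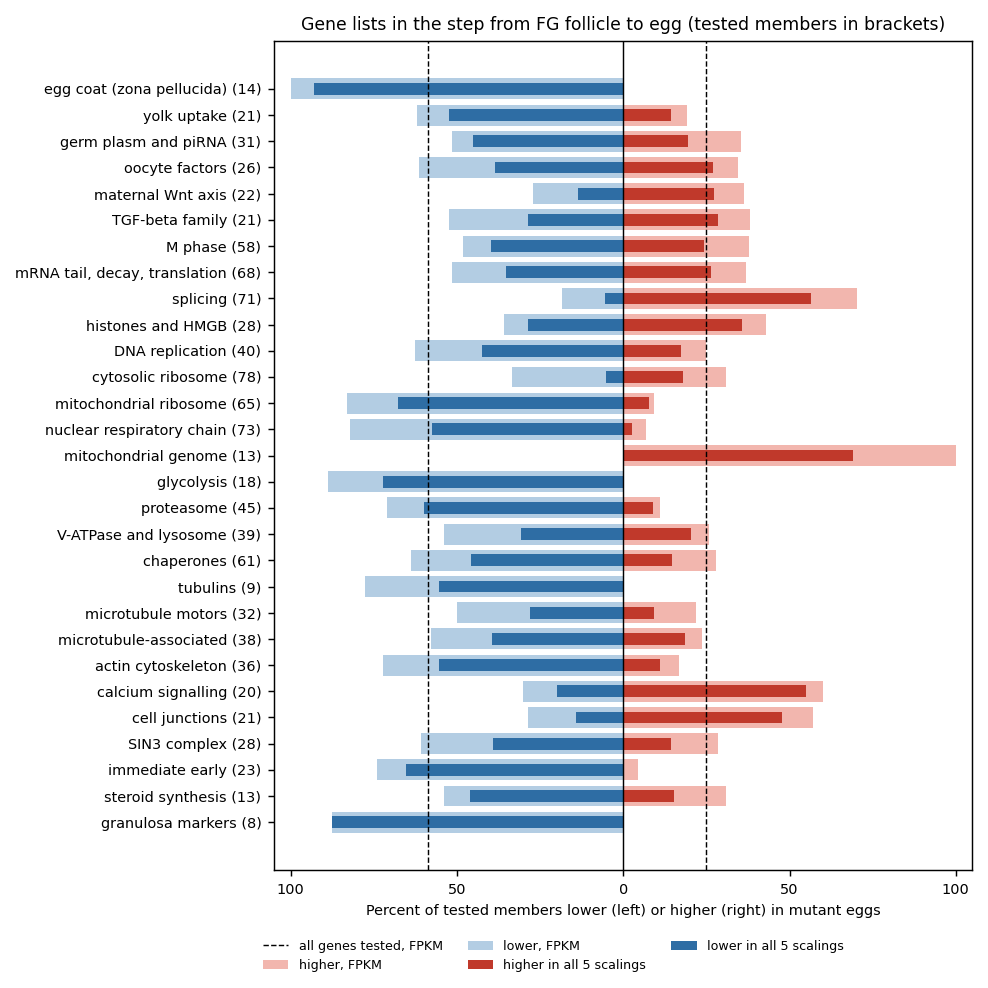
Percent of tested members of each gene list called lower (left, blue) or higher (right, red) in mutant eggs with FPKM (wide pale bars) and under all 5 scalings (narrow dark bars); dashed lines give the FPKM background of 58.6% lower and 24.8% higher. Among the lists shown, bars of the egg coat, glycolysis, tubulins and granulosa markers lie on the left alone, and the splicing, calcium and mitochondrial genome bars extend furthest to the right. The endothelial list, with both of its tested genes higher, and some other lists are not drawn.

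Calcium signalling and cell contacts also had more rises than falls, against 24.8% higher and 58.6% lower over all genes. Calcium genes used at egg activation were higher in 12 of 20 (60%) and lower in 6 (30%). Under all 5 scalings, 11 and 4 kept that call, against 17.2% and 38.1% over all genes. plcg1, a phospholipase, ran from 80.3 to 88.8 FPKM in eggs and 21 to 23.9 in FG follicles. fyna, a Src-family kinase, ran from 26 to 31.0 FPKM in eggs and 7.15 to 7.49 in FG follicles, and the calcium pump gene atp2a2a from 54.2 to 71.8 FPKM in eggs and 11.2 to 18.1 in FG follicles. itpr2, a calcium release channel, was lower and ran from 0.773 to 2.15 FPKM in eggs and 8.65 to 9.70 in FG follicles. Junction genes were higher in 12 of 21 (57.1%) and lower in 6 (28.6%), with 10 and 3 so under all 5 scalings. The claudin gene cldn7b was higher and ran from 26 to 38.2 FPKM in eggs and 2.33 to 4.03 in FG follicles. oclna, an occludin gene of tight junctions, was higher and ran from 128 to 179.9 FPKM in eggs and 36 to 39.3 in FG follicles. The connexin gene cx34.5 ran from 0.203 to 0.756 FPKM in eggs and 14.3 to 54.1 in FG follicles, and the claudin gene cldn11a from 0.306 to 0.704 FPKM in eggs and 17.3 to 48.0 in FG follicles. Both were lower in eggs and highest in follicle libraries 2 and 4. Each was under 1 FPKM in every egg, so the filter had fixed its direction. trpm7, a channel for magnesium and calcium, was higher and ran from 34.2 to 38.6 FPKM in eggs and 6.01 to 7.38 in FG follicles. atp1b1a, a sodium pump subunit, was lower and ran from 0.808 to 1.25 FPKM in eggs and 25.8 to 71.0 in FG follicles.

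Partners of the mutated gene's product changed in both directions. Of 28 tested SIN3 complex genes, 17 were lower and 8 higher in eggs (11 and 4 under all 5 scalings), with a median of -0.98 against -0.86 over all genes. Those shares, 60.7% lower and 28.6% higher, are near the 58.6% and 24.8% over all genes. hdac1, the deacetylase, read 185, 172, 248, 185 and 223 FPKM in eggs against 82.1, 71.3, 84.5 and 78.4 in FG follicles, with all eggs higher. rbbp4, a histone-binding subunit, was higher and ran from 134 to 192 FPKM in eggs and 70.7 to 80.8 in FG follicles. ing2, which reads a histone mark, was lower at 1.69, 2.43, 1.82, 6.36 and 7.21 FPKM against 44.2, 36, 42.4 and 38.1, and egg libraries 4 and 5 were above the other 3 eggs. sap130b, another subunit, was lower and ran from 0.186 to 0.451 FPKM in eggs and 7.52 to 9.42 in FG follicles, a direction that the filter had fixed. The scaffold gene sin3aa was lower and ran from 3.54 to 6.89 FPKM in eggs and 12.7 to 16.8 in FG follicles. Its copy sin3ab ran from 15.7 to 25.2 FPKM in eggs and 13.4 to 16.5 in FG follicles, with overlapping stages and a log2 difference of 0.35 ± 0.15 (SE; adjusted p = 0.0403) that TPM turned to -0.13. That call was also lost without egg library 3 (0.35, adjusted p = 0.0597), 4 (0.33, 0.072) or 5 (0.26, 0.0842) and without follicle library 2 (0.34, 0.0838), 3 (0.37, 0.0665) or 4 (0.31, 0.104). suds3 ran from 2.25 to 5.79 FPKM in eggs and 2.0 to 4.89 in FG follicles and was not called (adjusted p = 0.588).

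The 10 most abundant nuclear genes of a library held 5.75% ± 0.373 of nuclear FPKM in eggs and 5.61% ± 0.134 in FG follicles, a difference that an exact permutation test did not call (p = 0.54). The most abundant nuclear messages included h1m, npc2, cldnd, sumo3b, ppdpfb, hnrnpabb and nme2b.1, named by their rank in eggs. cldnd, a claudin, ran from 1574 to 2297 FPKM in eggs and 589.9 to 707 in FG follicles. sumo3b, which encodes a protein modifier, ran from 1094 to 1439 FPKM in eggs and 111 to 213 in FG follicles. nme2b.1, a nucleoside diphosphate kinase gene, ran from 839 to 1283 FPKM in eggs and 386 to 406 in FG follicles. retsatl, by name a relative of retinol saturase, was among the most abundant in follicles and ran from 31.8 to 47.2 FPKM in eggs and 956 to 1171 in FG follicles. Genes at 5 FPKM or more in every library of 1 stage and below 0.5 in every library of the other were 83 in the follicles and 5 in the eggs. Both counts use FPKM alone and were not made under another scaling. ccni2, cnsta and ago1 were among the 5, and ago1, an Argonaute gene, ran from 6.83 to 11.6 FPKM in eggs and 0.269 to 0.491 in FG follicles. mnd1, which acts in meiotic recombination, was among the 83 and ran from 0.143 to 0.422 FPKM in eggs and 11.9 to 13.6 in FG follicles. hsd11b2, whose product inactivates cortisol, was another and ran from 0.272 to 0.439 FPKM in eggs and 13.1 to 56.6 in FG follicles.

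The largest rises by the rule for changes included rflnb, map3k1, mknk1 and slc25a37. rflnb read 112, 77.3, 122.8, 62.7 and 82.3 FPKM in eggs and 2.81, 3.07, 2.49 and 1.99 FPKM in FG follicles, and the product bundles actin. map3k1, a kinase of stress pathways, ran from 32 to 41.9 FPKM in eggs and 0.636 to 1.27 in FG follicles. mknk1, a kinase of the cap-binding factor eIF4E, ran from 297 to 417 FPKM in eggs and 19.4 to 25.2 in FG follicles. slc25a37, which carries iron into mitochondria, ran from 48.8 to 64.0 FPKM in eggs and 1.99 to 2.38 in FG follicles. ctnnd1, a cadherin partner, ran from 131 to 171 FPKM in eggs and 6.44 to 10.4 in FG follicles, and itga5, an integrin chain, from 21 to 24.8 FPKM in eggs and 0.505 to 0.738 in FG follicles. The rule took only genes whose stages did not overlap, as was so for 76.9% of all tested genes, so the gap between stages was fixed by the choice. itga5, under 1 FPKM in every follicle, passed the level filter through the eggs alone, so its direction was fixed by it. Among falls, selenop, a selenium transport gene, ran from 0.654 to 0.942 FPKM in eggs and 32.3 to 102 in FG follicles and was highest in follicle libraries 2 and 4. st3gal1, a sialyltransferase gene, ran from 1.81 to 3.37 FPKM in eggs and 67.7 to 179 in FG follicles and was highest in follicle libraries 1 and 3.

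Some genes varied among females more than between stages. gmnn, the replication inhibitor geminin, read 41.4, 37.6, 0.758, 24.2 and 0.697 FPKM in eggs and 1.01, 44.1, 0.385 and 33.4 in FG follicles. dnajc9, a chaperone gene, read 1.07, 1.54, 49.4, 19.6 and 32.8 in eggs and 21.9, 0.694, 23.3 and 0.477 in follicles. High and low values appeared at both stages, and neither was called (adjusted p = 0.807 and 0.494). gtf2a2, a general transcription factor subunit, was at 188, 96.6, 1.27, 2.78 and 0.736 FPKM in eggs and 1.59, 0.726, 0.679 and 76.7 in follicles. hpf1 ran from 2.35 to 125.9 FPKM in eggs and 1.15 to 40.5 in FG follicles, and aktip from 3.60 to 124 FPKM in eggs and 1.43 to 27.9 in FG follicles, so both were uneven at each stage. isg15, an interferon-induced gene, was at 0.0485, 0.10, 0.10, 0.101 and 0.304 in eggs and 0.0463, 10.1, 0.305 and 22.3 in follicles, high in follicle libraries 2 and 4 alone, and too rare for the test.

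The same step was measured in wild-type fish, with no library shared. Across the 9749 genes, the log2 differences of the 2 genotypes had a Pearson r of 0.958 and a Spearman rho of 0.956, given as a description since genes are not independent. Of 7504 genes called in both, 7487 went the same way. The difference of the steps was tested over 10547 genes with all 18 libraries: 733 (6.95%) were called, 446 with a higher step in mutants (4.23%) and 287 with a lower one (2.72%), and 315 by at least 1. In wild type the mitochondrial share was 35.5% in eggs and 15.3% in FG follicles, means of 5 and 4.

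A few genes moved in opposite directions in the genotypes. arfgap1, a GTPase activator of Golgi transport, read 14.1, 17.7, 13.4, 14.8 and 18.9 FPKM in mutant eggs and 3.79, 7.43, 4.15 and 4.39 in mutant FG follicles, a rise, whereas wild type had 2.72 ± 0.474 FPKM in eggs and 9.12 ± 1.51 in FG follicles, a fall. The difference of steps was 2.96 ± 0.24 (SE; adjusted p = 1.85e-07). hint3, a gene of the histidine triad family, differed by 2.37 ± 0.29 (SE; adjusted p = 3.71e-05), with mutant values of 1.87 to 4.29 FPKM in eggs and 0.718 to 2.07 in FG follicles and wild-type values of 0 to 0.378 FPKM in eggs and 1.36 to 3.18 in FG follicles. bag4, a co-chaperone, and the chaperone canx differed by 0.95 and -0.60. The mutant rise of bag4 was lost with TPM (0.09, adjusted p = 0.503). The mutant fall of canx was lost with TPM without the mitochondrial genome (-0.23, adjusted p = 0.0511) and turned to 0.63 with median-of-ratios scaling (adjusted p = 0.00121). hint3, bag4 and canx were chosen after their values were seen. They and arfgap1 are among 16 genes called with opposite steps and a called difference.

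Several of the strongest differences came from genes nearly absent in mutants. nupr1b was at 0 in every mutant library and at 0.353 ± 0.113 FPKM in eggs and 24.5 ± 7.47 in FG follicles in wild type, so the difference of 4.19 stands for a wild-type change alone. mrpl1, spns1, riok2, pik3cg and ptx3b likewise lay under the mutant filter, and differed by 3.82, -2.505, 2.54, -1.70 and 2.63. Among genes tested in mutants, mt2, a metallothionein, fell from 173, 159, 216 and 185 FPKM in mutant follicles to 6.52, 5.67, 3.14, 3.91 and 8.87 in eggs, with a difference of steps of -2.43 ± 0.39 (SE; adjusted p = 7.12e-04), while wild-type means were 1.54 ± 0.844 FPKM in eggs and 13.1 ± 5.88 in FG follicles. fancm ran from 3.0 to 4.38 FPKM in eggs and 2.57 to 3.79 in FG follicles in mutants, against wild-type means of 22.9 ± 10.8 FPKM in eggs and 3.62 ± 0.546 in FG follicles, with a difference of -2.07 ± 0.33 (SE; adjusted p = 6.64e-04). gemin4 and rbfa differed by -2.004 and 2.61. rbfa lost its call under 18 of 34 alternatives. gemin4 lost it under 3, a pseudocount of 0.1 (adjusted p = 0.175), TPM without the mitochondrial genome (0.067) and egg libraries 4 and 5 (0.0944). spns1 came to -0.49 with a pseudocount of 0.1 (adjusted p = 0.356).

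Members of some lists had called differences between the genotypes. Of the 13 mitochondrial genes, 12 rose further in mutants and none less with FPKM, with mt-nd6 at 1.43 ± 0.28 (SE; adjusted p = 0.00407) and mt-atp6 at 1.34 ± 0.28 (SE; adjusted p = 0.00562). Over all genes tested, 4.23% had a higher step in mutants and 2.72% a lower one. Quantile normalization turned the differences of mt-co1 and mt-cyb to -0.051 and -0.067 and left mt-atp6 at 0.43 (adjusted p = 0.215). The calls of mt-co1 and mt-cyb were also lost with TPM (adjusted p = 0.0721 and 0.0621) and with median-of-ratios scaling (0.236 and 0.149). They were lost too without mutant FG libraries 1 and 3 (0.204 and 0.215). The mitochondrial share was 8.25% and 7.64% in those libraries, and 12.3% and 13.8% in FG libraries 2 and 4. Median-of-ratios scaling left mt-atp6 at 1.21 (adjusted p = 0.0838), and egg libraries 4 and 5 left mt-nd6 at 1.19 (adjusted p = 0.123). hmgb2b, a chromatin protein, ran from 566 to 752 FPKM in eggs and 128 to 142 in FG follicles in mutants and 236 to 342 FPKM in eggs and 147 to 211 in FG follicles in wild type, with a difference of 1.45 ± 0.18 (SE; adjusted p = 5.67e-05), and kept its call under all 34 alternatives. h1m and h2afvb differed by 0.64 and 0.70, calls lost with TPM (adjusted p = 0.155 and 0.117) and with median-of-ratios scaling (0.326 and 0.206). hist1h2a11, a histone gene chosen after its values were seen, had a lower step in mutants, with a difference of -2.40 (adjusted p = 1.31e-04). Its call was not followed under the alternatives. The dynein gene dync1h1 had a lower step in mutants, with a difference of -1.38 ± 0.27 (SE; adjusted p = 0.004), a call lost with egg libraries 4 and 5 (adjusted p = 0.0972). The step differences of hsd17b1 and b2m were -1.52 and -1.42, both lost with a pseudocount of 0.1 (adjusted p = 0.132 and 0.246), beside granulosa sums of 25.6 to 49.6 FPKM in wild-type follicles and 37.8 to 158 in mutant follicles, and the part of those sums in the difference was not tested. No tubulin gene of 11 and no SIN3 complex gene of 30 was called in the difference, against 6.95% of all genes tested, and lists this short would hold few calls at that share.

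**Figure D5:**
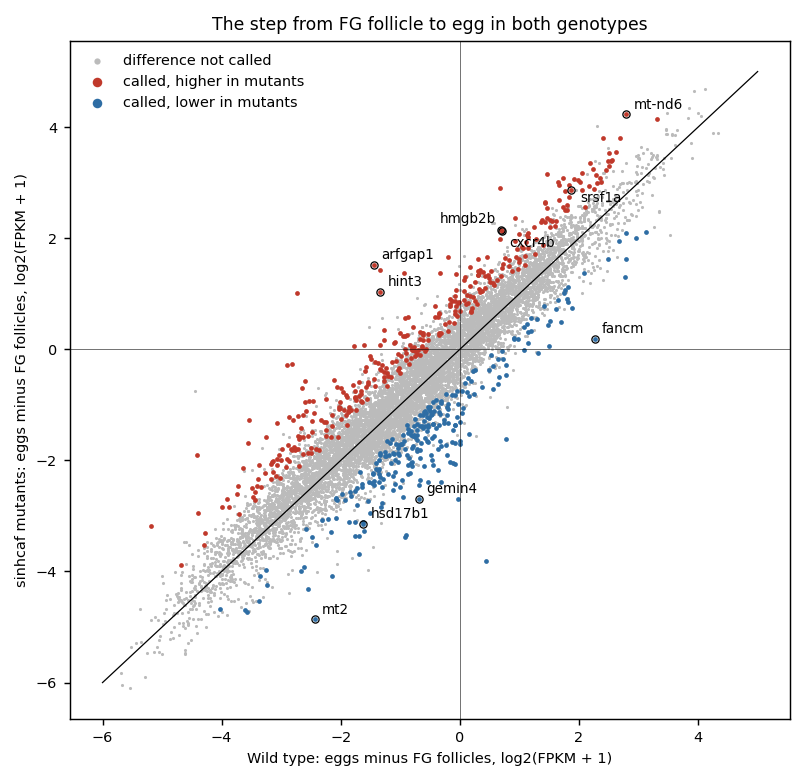
Step from FG follicle to egg, as the log2(FPKM + 1) difference, in wild type (x axis) and sinhcaf mutants (y axis) for genes tested in mutants; colour marks genes whose difference between genotypes was called. Points run along the line of equal steps (Pearson r 0.958), with arfgap1 and hint3 in the upper left and mt2 below the line.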

How the data were processed

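The 9 mutant and 9 wild-type libraries were grouped by their genotype and stage labels, and all 18 library columns of the deposited table were used. The deposited values are FPKM, made by the authors; per the submitters' processing notes, the tools were HISAT2, HTSeq, Trimmomatic and Cufflinks, and GRCz11 was the build. Versions, order, annotation, use of strand and treatment of shared reads are not given in the sources used here. No counts were used, which leaves depth unknown, and precision is given by how much females differ. Within mutant eggs and within mutant FG follicles, the commonest ratio of low values to library 1 put relative depth within 0.02 on the log2 scale. Only 4.31% (FG follicle library 2) to 13.8% (egg library 2) of low genes lay within 0.03 of that ratio, so it is a weak guide.

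Values were taken as log2(FPKM + 1), with genes kept that reached 1 FPKM in 4 or more libraries. limma 3.58.1 (lmFit, then eBayes with trend; R 4.3.3) fitted 2 stage means to the 9 mutant libraries. For the difference of steps it fitted 4 group means to all 18. Calls had a Benjamini-Hochberg adjusted p under 0.05 over all genes tested. A fold on this scale understates changes of low genes. On simulated data for the mutant step (9749 genes, 3 runs), 77% of genes changed by 1 and 94% of those changed by 2 on the log2 scale were called, and 4.65% of calls were false. That simulation changed a small part of the genes, with as many rises as falls. In the data 83.4% of genes were called and falls outnumbered rises, so these rates do not measure the error of the calls reported here. Library measures were compared with exact permutation tests in scipy 1.17.1.

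The members and the 43 gene lists were chosen with earlier results of these data known. Named genes were the 15 largest rises and falls (mean FPKM of at least 5, no overlap, a symbol used once), up to 4 called members of each list each way, all members of 6 short lists, the most abundant, the most variable, those on at one stage alone, and those with the largest difference of steps. The text leaves out some of them. sinhcaf, hint3, bag4, canx and hist1h2a11 were chosen after their values were seen. Of the list entries, 53 had no match in the table. Alternatives were other pseudocounts, filters, scalings, variance settings, weights, a replicate block, and subsets of libraries. The only annotation at hand is of another assembly, so no coordinates are printed.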

Additional observations from a re-analysis of the deposited data

Results flagged for a closer look

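In groups of 4 or 5 libraries, the highest or lowest value was set apart from the others by Dixon's criterion in 29 of 438 groups examined, and chance flags about 1 in 20 groups. In FG follicle library 4 these were low values of sh2d5 (2.72 FPKM), smad5 (29.2), fosab (5.62), gadd45ba (2.63), cyp11a1 (43.9), cyp17a1 (29.2), sumo3b (111.3) and ago1 (0.269), and high values of mrpl17 (200.7), psmc5 (39.3) and gtf2a2 (76.7). In other FG follicle libraries, the low values were of zp3d.1 (129.1, library 2), tuba8l4 (258.4, library 2), nono (0.787, library 2) and rpl35a (67.3, library 1), and the high ones of vldlr (86.3, library 3) and aldoaa (72.1, library 1). Among eggs, the values set apart as high were tdrd5 (1.17, library 4), krt8 (0.436, library 4), hmgb2b (752.3, library 3), ago1 (11.6, library 5), isg15 (0.304, library 5), pik3cg (2.05, library 3) and ptx3b (0.0475, library 1). Those set apart as low were atp6v0b (1.28), cx43 (0.233), retsatl (31.8) and hint3 (1.87), all in library 1, and nono (2.49) in library 3.

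The step from FG follicle to egg differed between the genotypes for 33 named genes, hist1h2a11 not counted, by the interaction term of limma at an adjusted p under 0.05. It was higher in mutants, as a difference of log2 steps, for nupr1b (4.19), mrpl1 (3.82), arfgap1 (2.97), ptx3b (2.63), rbfa (2.61), riok2 (2.54), hint3 (2.37), hmgb2b (1.45), mt-nd6 (1.43), cxcr4b (1.43), mt-atp6 (1.34), mt-cyb (1.30), srsf1a (1.003), mt-co1 (0.96), bag4 (0.95), cldn12 (0.91), slc25a37 (0.84), psme3 (0.82), elavl1b (0.78), orc6 (0.73), h2afvb (0.70), h1m (0.64), hnrnpa0b (0.63) and myl12.1 (0.42). It was lower in mutants for spns1 (-2.51), mt2 (-2.43), fancm (-2.07), gemin4 (-2.004), pik3cg (-1.70), hsd17b1 (-1.52), b2m (-1.42), dync1h1 (-1.38) and canx (-0.60). Of these 33 calls, 21 were lost under at least 1 alternative run.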

How the results depend on the processing

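Of 211 tested genes named or held ready for the text, 191 kept direction and call under every alternative run. Of the other 20, 16 lost or gained a call and 7 reversed, 3 of them in both counts. Quantile normalization gave -0.27 for mt-co1, -0.52 for mt-cyb and -0.62 for mt-co2. Median-of-ratios scaling gave 0.84 for cyp11a1, 0.73 for rbfa and 0.63 for canx, and TPM gave -0.13 for sin3ab. Of 33 named genes with a called difference of steps, hist1h2a11 not counted, 12 kept it under every alternative run and 21 lost it under at least 1. Quantile normalization reversed 2 of these, mt-co1 (-0.051) and mt-cyb (-0.067). The least stable was elavl1b, whose call was lost under 27 of 34 alternatives. Calls were lost without a change of sign under 19 for mt-cyb, 18 for mt-co1 and for rbfa, 16 for myl12.1, 15 for hnrnpa0b and 13 for psme3. The causes were not tested.

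The count of higher genes was 3895 with median-of-ratios scaling and 3948 with quantile normalization, against 2417. The count of lower genes was 9344 without a filter and 3662 with an FPKM of at least 5 in 4 libraries, which follow from the number of genes tested. The difference of steps was called for 372 genes with a pseudocount of 0.1, 1193 with a pseudocount of 5, 394 with an FPKM of at least 5, 473 with TPM, 484 with TPM without the mitochondrial genome and 2379 with array weights, against 733, and the cause was not tested. Leaving out each library in turn gave 7917 to 8158 genes called in the mutant step, 2312 to 2436 higher, 5602 to 5784 lower and 562 to 843 for the difference of steps. It gave 31.05 to 34.54 points for the mitochondrial share. That share differed by 33.99 with egg libraries 1 to 3 (exact permutation p = 0.0571) and by 31.4 with egg libraries 4 and 5 (p = 0.133), each the smallest p those numbers of libraries allow.

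Same-numbered eggs and FG follicles did not deviate together (correlations of -0.18, 0.03, -0.04 and -0.14). Pairs with different numbers ran from -0.285 to 0.323. With so few libraries and such different stages, these values cannot settle whether the numbers pair the females. With a replicate block, 8028 genes were called in the step, 2304 higher and 5724 lower, and 747 in the difference. Egg libraries 1 to 3 gave 8321 calls in the step and 890 in the difference, and egg libraries 4 and 5 gave 8059 and 506. FG follicle libraries 1 and 3 averaged into 1 gave 7915 calls. Leaving out follicle libraries 1 and 3, or 2 and 4, chosen after seeing the data, gave 7554 and 7688. Depth is unknown, so genes near 0 FPKM have no detection limit.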
